A study of Mus musculus with 5 samples.

Results

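H3K27ac was measured over the genes of 9 proteins that write, remove or read out the marks on lysine 27 of histone H3, in Treg cells, the Foxp3-expressing regulatory T cells, taken from the large intestine. The genes were Ep300, Crebbp, Hdac3, Hdac7, Ezh2, Eed, Suz12, Kdm6a and Kdm6b, 9 of 21864 annotated protein-coding genes, and every H3K27ac peak lying on one of them or within 5 kb of its ends was taken. This gave 115 of the 124158 peaks counted in the study. The cells were CD3+CD4+Foxp3-YFP+ Treg cells sorted from C57BL/6 mice at 2 weeks of age, labelled as females and males pooled, with each library made from 60000 cells of 3 to 5 mice. Control mice (Ctrl) carried Foxp3Cre-YFP and 1 floxed Setd2 allele (Foxp3Cre-YFP Setd2 f/+), and knockout mice (KO) carried Foxp3Cre-YFP and 2 floxed alleles (Foxp3Cre-YFP Setd2 f/f). Both groups therefore expressed the Cre-YFP reporter from Foxp3, and the Ctrl cells kept 1 intact Setd2 allele. Setd2 encodes the methyltransferase that places H3K36me3 over transcribed genes, and the comparison asked how its loss in Treg cells affects H3K27ac.

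Acetylation and trimethylation of H3K27 exclude each other on the same residue, and the 2 marks accompany active and silenced chromatin, respectively. The acetyltransferases p300 and CBP, encoded by Ep300 and Crebbp, deposit H3K27ac at promoters and enhancers, and histone deacetylases remove it. The Polycomb repressive complex PRC2, with the catalytic subunit EZH2 and the core subunits EED and SUZ12, deposits H3K27me3, and the demethylases UTX (Kdm6a) and JMJD3 (Kdm6b) remove it. In Treg cells, EZH2 and p300 are both known to support suppressive function. H3K27ac at these genes describes the chromatin of the genes themselves, not the amount or activity of their proteins.

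Summed over all peaks, the counts were 2395002 and 3630447 for Ctrl 1 and 2 and 3007444 and 4712473 for KO 1 and 2. CPM is a count per 1000000 counts of its library after TMM scaling. Pearson's correlation of log2 (CPM + 1) over the 74550 tested peaks was 0.78 between the Ctrl libraries, 0.84 between the KO libraries and 0.76 to 0.86 between genotypes, so libraries of 1 genotype were not set apart from the other. All 7 Treg and T cell markers, Foxp3 and Cd4 among them, had promoter peaks, which summed to 913 and 1062 CPM in Ctrl and 1073 and 1337 CPM in KO. Summed promoter CPM was 6.25 to 11.3 for CD8 T cell, 13.1 to 24.4 for B cell, 12.5 to 33.9 for myeloid and 14.0 to 21.1 for epithelial markers, and Cd8a, Ms4a1, Pax5, Lyz2, Itgam, Csf1r, Cdx2 and Col1a1 had no promoter peak. The stromal and endothelial list summed to 80.5 to 108.5 CPM, most of it at Pecam1. The Setd2 promoter held 26.2 and 25.0 CPM in Ctrl and 27.2 and 33.3 CPM in KO, which does not check the genotype, since the label gives a floxed allele and not a deleted promoter.

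The promoters of the PRC2 core genes are shown first, because they shared a sequence element that the other matched promoters lacked. The element was picked from several scanned motifs after their hits were seen, and whether it marks PRC2 promoters was not tested. Each sequence runs 5' to 3' on the strand of the gene, from 250 bases before to 50 after the RefSeq transcription start site on GRCm38.p6, the same assembly as mm10. Capitals mark the CCAAT box (CCAAT, or ATTGG on the other strand) and the GC box GGGCGG on the strand shown or its complement CCGCCC.

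Ezh2 (chr6:47594981-47595280, minus strand): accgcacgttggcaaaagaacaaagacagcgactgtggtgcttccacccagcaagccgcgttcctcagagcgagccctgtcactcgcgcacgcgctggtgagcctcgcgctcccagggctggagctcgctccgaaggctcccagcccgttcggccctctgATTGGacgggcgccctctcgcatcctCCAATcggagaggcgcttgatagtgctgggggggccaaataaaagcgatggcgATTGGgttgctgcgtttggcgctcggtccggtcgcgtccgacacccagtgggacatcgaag

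Eed (chr7:89980927-89981226, minus strand): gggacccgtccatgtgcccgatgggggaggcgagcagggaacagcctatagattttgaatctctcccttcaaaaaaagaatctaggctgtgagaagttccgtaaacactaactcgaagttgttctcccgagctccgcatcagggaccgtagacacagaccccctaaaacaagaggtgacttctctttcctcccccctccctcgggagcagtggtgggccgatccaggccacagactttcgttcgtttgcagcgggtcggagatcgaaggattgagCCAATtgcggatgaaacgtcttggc

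Suz12 (chr11:79992856-79993155, plus strand): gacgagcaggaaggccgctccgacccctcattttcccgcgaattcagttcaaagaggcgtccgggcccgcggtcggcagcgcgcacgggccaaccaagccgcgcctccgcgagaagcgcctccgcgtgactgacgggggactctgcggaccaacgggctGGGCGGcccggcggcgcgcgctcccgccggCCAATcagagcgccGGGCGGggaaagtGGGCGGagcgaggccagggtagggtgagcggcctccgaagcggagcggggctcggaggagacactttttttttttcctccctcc

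All 3 PRC2 core promoters held a CCAAT box, with 3 copies at Ezh2, 1 at Eed and 1 at Suz12, while 37.4% of the 32851 promoter windows of the reference table hold at least 1. The Eed copy lies just after the start site. None of the windows of Ep300, Crebbp or Kdm6a, nor any of the 4 windows of Hdac7, held a CCAAT box. Hdac3 and Kdm6b were not matched in the table. Suz12 also held 3 GC boxes, an element found in 35.7% of the windows. The ETS motif CCGGAAG was found on neither strand of any window of the 7 matched genes, nor were the TATA box TATAAA, the cyclic AMP response element TGACGTCA or the NRF1 motif.

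The windows of the acetyltransferase genes and of Kdm6a are given for comparison, with GC boxes and, at Kdm6a, the E-box CACGTG in capitals.

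Ep300 (chr15:81585964-81586263, plus strand): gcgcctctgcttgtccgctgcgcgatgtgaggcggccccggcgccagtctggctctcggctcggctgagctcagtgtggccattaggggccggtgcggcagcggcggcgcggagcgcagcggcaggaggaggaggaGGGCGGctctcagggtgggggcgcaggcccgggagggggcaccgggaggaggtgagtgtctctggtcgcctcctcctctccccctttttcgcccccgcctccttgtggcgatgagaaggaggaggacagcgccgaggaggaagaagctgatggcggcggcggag

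Crebbp (chr16:4213355-4213654, minus strand): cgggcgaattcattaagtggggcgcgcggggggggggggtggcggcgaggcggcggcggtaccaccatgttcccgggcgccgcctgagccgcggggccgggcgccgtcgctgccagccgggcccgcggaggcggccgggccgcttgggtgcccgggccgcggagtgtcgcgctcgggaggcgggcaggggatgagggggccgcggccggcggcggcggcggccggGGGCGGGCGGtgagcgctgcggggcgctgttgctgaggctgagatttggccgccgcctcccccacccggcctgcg

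Kdm6a (chrX:18162325-18162624, plus strand): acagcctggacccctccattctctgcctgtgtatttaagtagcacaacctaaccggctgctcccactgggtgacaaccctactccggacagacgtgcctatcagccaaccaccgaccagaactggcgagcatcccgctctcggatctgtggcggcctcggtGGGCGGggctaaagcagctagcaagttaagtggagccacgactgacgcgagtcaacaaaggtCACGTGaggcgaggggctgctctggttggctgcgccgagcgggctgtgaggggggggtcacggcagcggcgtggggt

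The Crebbp window had a GC content of 82.0%, above 99.5% of all windows, and held 49 CpG dinucleotides and 2 overlapping GC boxes. It was the 1 window of these genes that no H3K27ac peak covered, and the nearest peak lay 227 bases away. The windows of Ep300, Ezh2, Eed, Suz12 and Kdm6a and all 4 of Hdac7 lay wholly inside a peak. Kdm6a held the E-box, which 7.2% of all windows hold, and 1 GC box. GC content was lowest at Eed and at 1 start site of Hdac7, with 54.7% each.

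Peaks were classed as promoter peaks when they reached within 3 kb of a transcription start site of the gene (26 peaks), as gene body peaks when they overlapped the rest of its span (74 peaks), and as flank peaks when they lay only in the 5 kb on either side (15 peaks). The extent of H3K27ac differed widely among the 9 genes. Peaks covered 67.3% of the 51.8 kb span of Hdac7 and 57.9% of the 15.2 kb span of Kdm6b, against 37.3% at Hdac3, 24.1% at Eed, 23.5% at Ezh2, 11.2% at Suz12, 5.56% at Kdm6a, 4.31% at Ep300 and 3.83% at Crebbp. Hdac7 and Ezh2 had the most peaks, 24 each, and Ep300 and Kdm6a the fewest, 5 each. Gene body peaks of these genes had a median width of 549 bp and promoter peaks of 1083 bp, beside 471 bp and 780 bp over all genes.

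Per kb of peak, the promoter level was highest at Kdm6a (28.0 ± 6.92 CPM per kb, mean ± SD over the 4 libraries), Eed (26.6 ± 2.54) and Kdm6b (25.7 ± 8.16), which stood at the 98.6th, 98th and 97.5th percentile of all genes with promoter peaks. Hdac3 (16.2 ± 3.08), Ep300 (15.4 ± 2.02) and Crebbp (14.7 ± 1.93) followed. Ezh2 (11.8 ± 0.814), Hdac7 (11.8 ± 2.56) and Suz12 (9.82 ± 3.09) were lowest, with Suz12 at the 23.7th percentile. By summed promoter CPM, not divided by peak width, Hdac7 stood at the 97.7th percentile, Ezh2 at the 69.6th and Suz12 at the 34.2nd. Of neighbours in the order per kb, only Crebbp and Ezh2 had ranges over the libraries that did not overlap. Eed and Suz12, whose products sit in the same complex, did not overlap in promoter level per kb (23.4 to 29.6 against 6.47 to 13.2 CPM per kb). In gene bodies the order ran from Hdac7 (12.3 ± 2.16 CPM per kb), Kdm6b (10.4 ± 1.61) and Hdac3 (9.46 ± 2.08) down to Suz12 (5.70 ± 3.73), Eed (4.94 ± 2.01) and Ep300 (4.69 ± 3.90), and all neighbours overlapped.

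**Figure D1:**
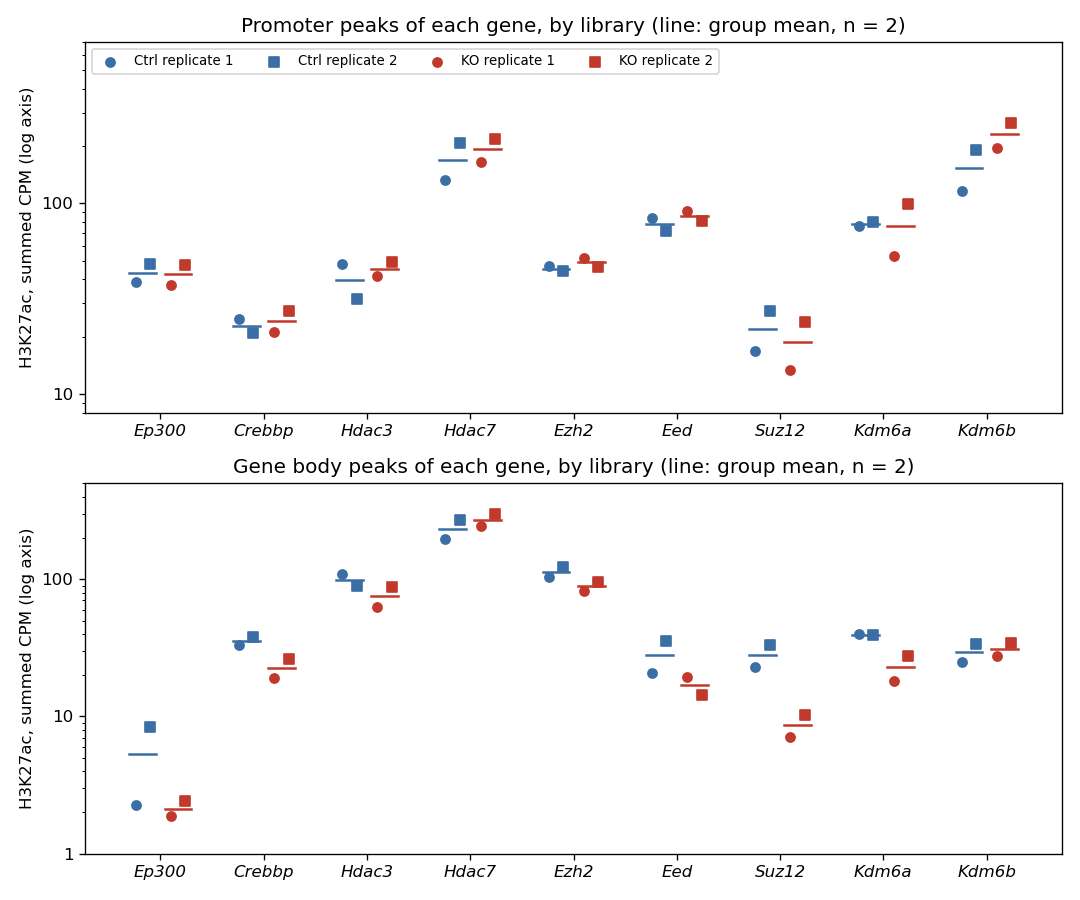
Summed H3K27ac of the promoter peaks (top) and gene body peaks (bottom) of each gene in CPM on a log axis, 1 point per library (blue Ctrl, red KO; lines are means of 2 libraries). Ctrl and KO points overlap at every promoter except Kdm6b, and both KO points lie below both Ctrl points in the gene bodies of Crebbp, Hdac3, Ezh2, Eed, Suz12 and Kdm6a.

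Across the 9 genes, no peak and no gene differed between KO and Ctrl at an adjusted p under 0.05 (edgeR quasi-likelihood test, Benjamini-Hochberg adjustment over all tested features). Of the 115 peaks, 81 had enough counts to be tested, and the smallest adjusted p among them was 0.998. Over all tested peaks, 1 was called, or 0.00134%. At an unadjusted p under 0.05, 3 of the 81 were higher and 2 lower in KO, beside 1.45% and 2.79% of all tested peaks, and DESeq2 called 0 peaks, as did both tools for promoter and gene body sums (0% of genes called). The direction split by position. Of the 22 tested promoter peaks, 14 were higher and 8 lower in KO (44.2% of all promoter peaks lower), with a median log2 fold change of 0.16, beside 0.06 over all promoter peaks. Of the 46 tested gene body peaks, 10 were higher and 36 lower, with a median of -0.34, and 78.3% being lower compares with 57.1% of all gene body peaks. Both KO libraries lay below both Ctrl libraries at 10 of these 46 peaks (21% of all gene body peaks) and above at 3 (14.7%). At the promoter peaks, 0 lay below (11%) and 7 above (18.8%). The 13 tested flank peaks had a median of 0.34.

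When all peaks of a class were summed per gene, the gene body sum was lower in KO for 7 of the 9 genes, with a median log2 fold change of -0.64, beside -0.17 over the 9186 genes tested, of which 62% were lower. Without KO replicate 1 these medians were -0.44 and -0.28, and with promoters taken within 1 kb -0.39 and -0.14, so the 9 genes lay 0.17 and 0.26 below all genes in place of 0.47. Both KO libraries lay below both Ctrl libraries at 6 of the 9, Crebbp, Hdac3, Ezh2, Eed, Suz12 and Kdm6a, against 27.9% of all genes, and above them at 0, against 10.3%. Hdac3 and Eed were near ties, with 87.7 CPM in KO 2 against 88.7 CPM in Ctrl 2 and 19.4 CPM in KO 1 against 20.8 CPM in Ctrl 1. The Hdac3 sum also includes 3 peaks within 3 kb of the Diaph1 start site. Promoter sums had a median of 0.11, beside 0.07 over 11495 genes, with 6 higher and 3 lower (41.2% of all genes lower), and 0 had an unadjusted p under 0.05 (0.826% of all genes higher and 0.461% lower). Kdm6b was the 1 promoter at which KO 1 and KO 2 both exceeded Ctrl 1 and Ctrl 2 (17.9% of all genes), and the opposite order was seen at 0 (8.93%). With total counts as library size, 8 of the 9 gene body sums were lower. With a loess offset fitted to abundance, 7 were lower, and while the median of all gene body sums moved to 0.02, that of the 9 was -0.35. A lower sum can come, among other sources, from fewer cells carrying the mark or from less of it per cell. These cannot be told apart in pooled cells, and no source of the lower sums was tested.

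**Figure D2:**
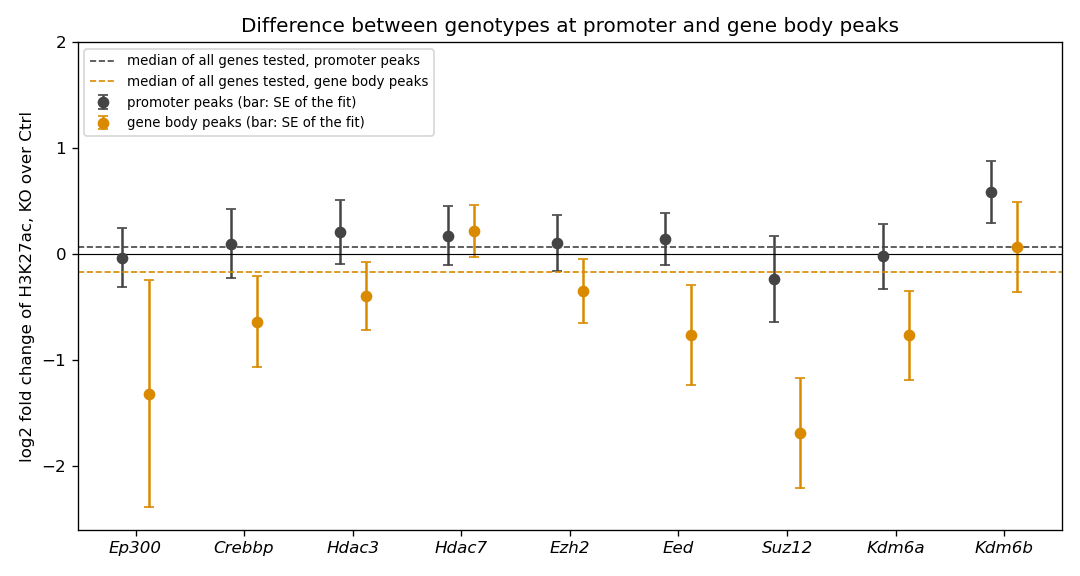
log2 fold change of H3K27ac, KO over Ctrl, for the promoter sum (grey) and gene body sum (orange) of each gene. Bars are the SE derived from the F statistic of the fit, and dashed lines are the medians of all genes tested. Gene body values lie below promoter values at every gene but Hdac7, and Suz12 has the lowest, at -1.69.

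Peaks covered little of the acetyltransferase genes, and their promoter sums overlapped between the groups. Ep300 (chr15:81585351-81652077, plus strand) held 38.9 and 47.9 CPM at its promoter in Ctrl and 37.3 and 47.7 CPM in KO, so the groups overlapped almost completely (log2 fold change -0.03 ± 0.28 SE). Its gene body had 2 peaks, both over exons, with 2.26 and 8.33 CPM in Ctrl and 1.86 and 2.40 CPM in KO. These rest on 5, 28, 5 and 10 counts, and 1 Ctrl library alone was high. Crebbp (chr16:4081328-4213997, minus strand) held 24.9 and 20.8 CPM at its promoter in Ctrl and 21.2 and 27.3 CPM in KO. The 9 peaks of its gene body summed to 33.0 and 37.8 CPM in Ctrl and 19.0 and 26.4 CPM in KO (log2 fold change -0.64 ± 0.43, unadjusted p = 0.141). The KO libraries were both lower, yet the difference did not pass the test.

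Both deacetylase genes carried H3K27ac over much of their span. Hdac3 (chr18:37935844-37955016, minus strand) encodes the catalytic subunit of the NCoR/SMRT corepressor complexes. Its promoter sum was 48.0 and 31.6 CPM in Ctrl and 41.7 and 49.4 CPM in KO, and both promoter peaks also lie within 3 kb of the Rell2 start site. Its gene body sum was 109.5 and 88.7 CPM in Ctrl and 62.6 and 87.7 CPM in KO (log2 fold change -0.39 ± 0.32). The largest part came from a 4.34 kb peak across the 3' end of the gene (chr18:37932520-37936857), which is shared with the start of Diaph1 and held 67.4, 60.1, 41.4 and 57.3 CPM in Ctrl 1, Ctrl 2, KO 1 and KO 2.

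Hdac7 (chr15:97792664-97844502, minus strand), a class IIa deacetylase abundant in the T cell lineage, had 7 annotated start sites and peaks along its whole length. Its promoter sum was 133 and 207 CPM in Ctrl and 165 and 219 CPM in KO, and its gene body sum 196 and 272 CPM in Ctrl and 244 and 300.5 CPM in KO. The groups overlapped in both classes. The largest gene body peak, 7.77 kb wide (chr15:97819844-97827610), held 93.7 and 115 CPM in Ctrl and 145 and 166 CPM in KO (log2 fold change 0.57 ± 0.27, unadjusted p = 0.0326, adjusted p = 0.998). With the loess offset on abundance its log2 fold change was 0.35. The most abundant promoter peak (chr15:97828197-97831097) held 30.3 and 61.0 CPM in Ctrl and 53.6 and 71.9 CPM in KO.

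Direction varied along Hdac7 in a split chosen after its values were seen. The 9 gene body peaks past 60% of the span summed to 51.1 and 94.6 CPM in Ctrl and 41.0 and 64.0 CPM in KO, and 8 of them had a negative log2 fold change. The 5 gene body peaks nearer the 5' end summed to 145 and 177 CPM in Ctrl and 203 and 237 CPM in KO, and 1 of them was negative. In the 3' set the Ctrl and KO libraries overlapped, and in the 5' set they did not. Without the 7.77 kb peak, the 4 other peaks of the 5' set summed to 51.1 and 62.2 CPM in Ctrl and 57.8 and 70.9 CPM in KO and overlapped.

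**Figure D3:**
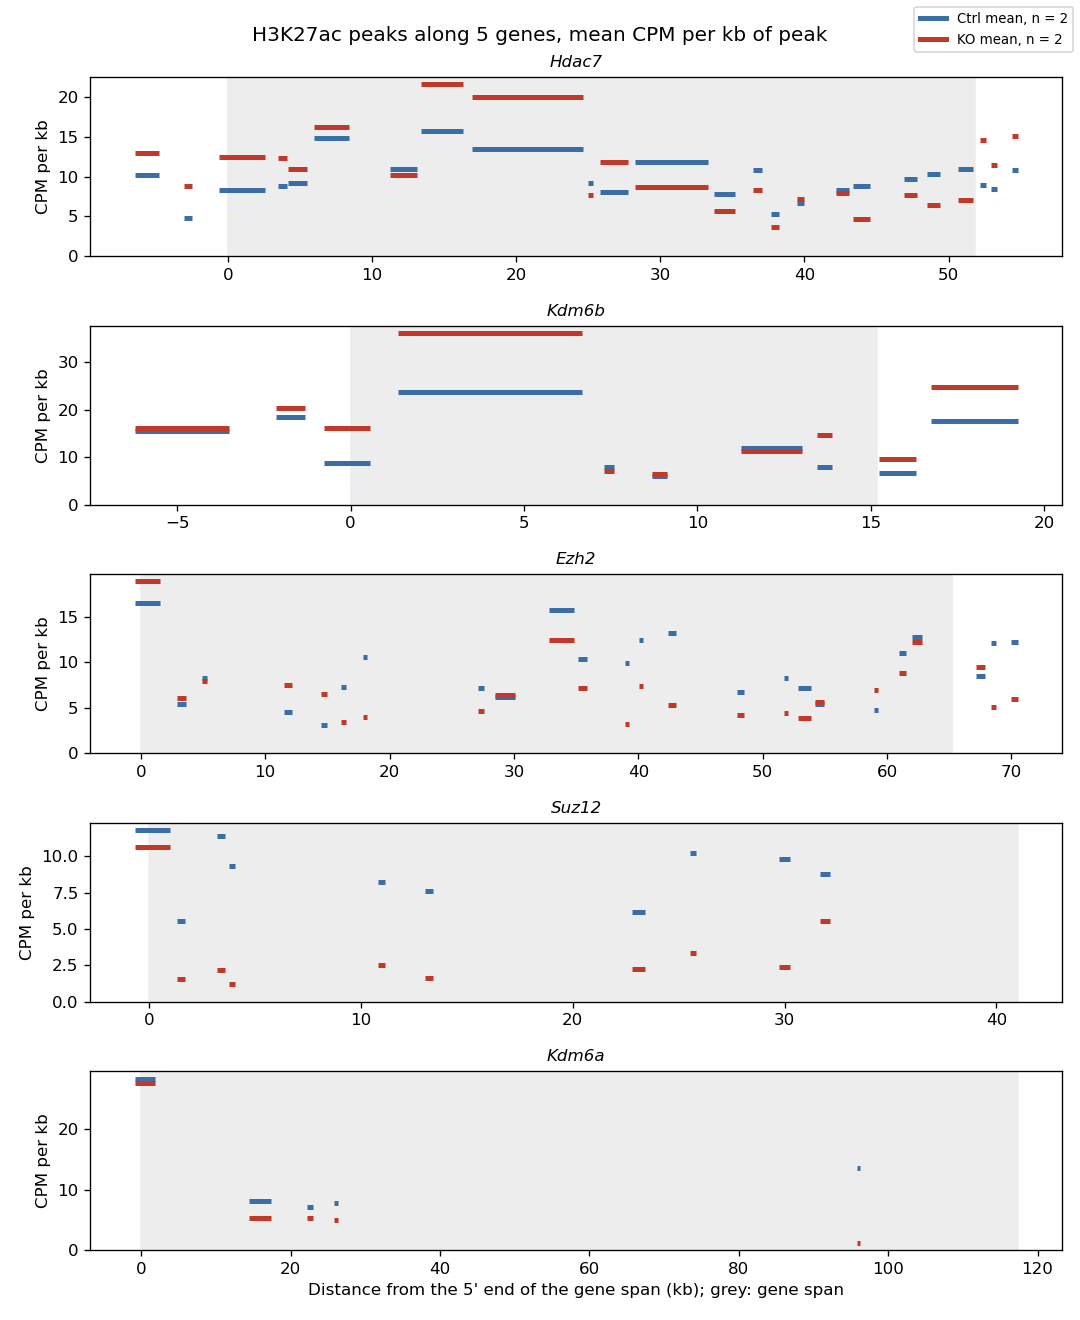
Mean H3K27ac of each peak in CPM per kb of peak (blue Ctrl, red KO, n = 2 each) against distance in kb from the 5' end of 5 genes, with the gene span in grey. KO lies above Ctrl in the 5' part of Hdac7 and over the wide Kdm6b peak, and below Ctrl at most peaks inside Ezh2, Suz12 and Kdm6a.

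All 3 PRC2 core genes had a lower gene body sum in both KO libraries than in both Ctrl libraries, Eed by a small margin, while their promoters overlapped. The same gene body order was seen at Crebbp, Hdac3 and Kdm6a, and at 27.9% of all genes. Ezh2 (chr6:47530139-47595341, minus strand) held 47.1 and 44.0 CPM at its promoters in Ctrl and 51.8 and 46.2 CPM in KO. Its 16 gene body peaks summed to 103 and 123 CPM in Ctrl and 81.6 and 96.1 CPM in KO (log2 fold change -0.35 ± 0.31). The largest of these, an intronic peak 2.04 kb wide (chr6:47560490-47562532), held 38.0 and 26.2 CPM in Ctrl and 22.7 and 28.3 CPM in KO and overlapped. A peak over an exon (chr6:47552281-47552924) held 9.05 and 8.04 CPM in Ctrl and 2.24 and 4.55 CPM in KO (log2 fold change -1.28 ± 0.67, unadjusted p = 0.0554).

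Eed (chr7:89954654-89980983, minus strand), the subunit that binds H3K27me3, had a single promoter peak of 3.07 kb with 83.7 and 72.02 CPM in Ctrl and 90.9 and 80.7 CPM in KO. The 8 small peaks of its gene body summed to 20.8 and 35.7 CPM in Ctrl and 19.4 and 14.4 CPM in KO (log2 fold change -0.76 ± 0.47, unadjusted p = 0.111). Of these, an intronic peak (chr7:89966571-89967684) held 9 and 29 counts in Ctrl and 3 and 11 counts in KO, or 4.07, 8.63, 1.12 and 2.64 CPM (log2 fold change -1.71 ± 0.84, unadjusted p = 0.0411, adjusted p = 0.998).

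Suz12 (chr11:79993106-80034123, plus strand), which holds the PRC2 core together, showed the largest gene body difference of the 9. Its 8 gene body peaks summed to 51 and 112 counts in Ctrl and 19 and 43 counts in KO, or 23.1 and 33.3 CPM against 7.08 and 10.3 CPM. Both KO libraries were well below both Ctrl libraries (log2 fold change -1.69 ± 0.52, unadjusted p = 0.001675, adjusted p = 0.311). Of the 9 gene body sums, it was the 1 with an unadjusted p under 0.05, beside 8.01% of all genes lower and 0.762% higher at that threshold. Leaving out each library in turn gave -2.03 to -1.39, and the loess offset on abundance gave -1.32. The 8 peaks are narrow and 2 of them were testable on their own, and the most abundant (chr11:80024791-80025260, over an exon) held 3.17 and 5.06 CPM in Ctrl and 2.61 and 2.64 CPM in KO. The other testable peak (chr11:79996317-79996658) held 10 and 11 counts in Ctrl and 2 and 3 counts in KO. It passed the filter of 10 counts in 2 libraries through the Ctrl libraries alone, which favours a lower KO value. Each of the 8 peaks had its highest CPM in a Ctrl library. Peaks called only in Ctrl would favour a lower KO sum, and where each was called was not examined. The Suz12 promoter held 16.7 and 27.4 CPM in Ctrl and 13.4 and 23.96 CPM in KO, and the groups overlapped (log2 fold change -0.24 ± 0.40).

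The H3K27 demethylase genes differed from each other. Kdm6b (chr11:69398508-69413675, minus strand), an inducible gene, held 116 and 190.5 CPM at its promoter in Ctrl and 196 and 265 CPM in KO (log2 fold change 0.59 ± 0.29, unadjusted p = 0.0688, adjusted p = 0.999). Both KO libraries were above both Ctrl libraries, although KO 1 and Ctrl 2 differed by little, and leaving out each library in turn gave 0.27 (without Ctrl replicate 1) to 1.003 (without Ctrl replicate 2). A promoter peak of 5.32 kb (chr11:69406993-69412307), the most abundant of the gene, held 95.01 and 157 CPM in Ctrl and 168 and 217 CPM in KO (log2 fold change 0.61 ± 0.26, unadjusted p = 0.0207). The peak over the start site (chr11:69413106-69414431) held 10.4 and 12.8 CPM in Ctrl and 17.9 and 24.7 CPM in KO (log2 fold change 0.87 ± 0.43, unadjusted p = 0.0429). Both had an adjusted p of 0.998. The gene body of Kdm6b overlapped between groups, with 24.9 and 33.9 CPM in Ctrl and 27.6 and 34.3 CPM in KO. Its most abundant peak (chr11:69400649-69402417, near the Tmem88 start) held 17.6, 24.7, 18.3 and 21.8 CPM in Ctrl 1, Ctrl 2, KO 1 and KO 2. This split depends on the 3 kb promoter limit. The 5.32 kb peak lies inside the gene, 1.37 kb from the start site, and becomes a gene body peak under a 1 kb limit. The gene body log2 fold change was then 0.52, in place of 0.07, and that of the promoter was 0.87.

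Kdm6a (chrX:18162575-18279936, plus strand), a subunit of the MLL3 and MLL4 complexes, had the highest mean promoter level per kb of the 9 genes, in a range shared with Eed and Kdm6b. It held 76.5 and 79.8 CPM in Ctrl and 53.3 and 99.9 CPM in KO, so the KO libraries lay on either side of both Ctrl libraries. Kdm6a is on the X chromosome, and the labels give each library as pooled females and males. Promoter CPM of Xist, the X-inactivation transcript, was 12.2 and 8.33 in Ctrl and 2.98 and 12.7 in KO, so KO 1 was lowest and KO 2 highest for both genes. The promoters of 4 Y-linked genes summed to 24.4 and 29.2 CPM in Ctrl and 48.4 and 22.8 CPM in KO, while chromosome X held 1.29% and 1.09% of counts in Ctrl and 1.21% and 1.12% in KO, so that KO 1 had the larger X share of the KO libraries. The part of the sex mixture in the Kdm6a values was not tested. The 4 intronic peaks of the Kdm6a gene body summed to 39.8 and 39.0 CPM in Ctrl and 18.3 and 27.8 CPM in KO (log2 fold change -0.76 ± 0.42, unadjusted p = 0.0738, adjusted p = 0.614). The largest (chrX:18176926-18179937) held 25.3 and 23.8 CPM in Ctrl and 13.04 and 18.9 CPM in KO. The most distal (chrX:18258361-18258753), 95.8 kb from the start, held 13 and 16 counts in Ctrl and 0 and 4 counts in KO (log2 fold change -3.19 ± 1.27, unadjusted p = 0.0118, adjusted p = 0.998), the smallest unadjusted p of the tested peaks of these genes. Its size rests on 4 counts in KO. The peak passed the filter of 10 counts in 2 libraries through the Ctrl libraries alone, which favours a lower KO value.

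A single scaling factor per library cancels in the balance between promoter and gene body counts of a gene, but a loess offset on abundance does not, and the share was computed without one. With that offset the promoter and gene body log2 fold changes of Kdm6b were both 0.35. The promoter share of a gene's promoter plus gene body counts was higher in both KO libraries than in both Ctrl libraries at 8 of the 9 genes, all but Hdac7, beside 35.2% of the 7380 genes with both classes tested. With promoters taken within 1 kb, it was 6 of 9. Near ties were Ep300, with 94.5% in Ctrl 1 (on 5 gene body counts) against 95.2% in KO 1 and KO 2, and Ezh2, with 31.3% in Ctrl 1 against 32.5% in KO 2. At Suz12 the share was 42.0% (exact 95% binomial interval 31.6 to 53.0) and 45.1% (38.1 to 52.2) in Ctrl and 65.5% (51.4 to 77.8) and 69.9% (61.7 to 77.3) in KO. The difference of 24.1 percentage points exceeded the difference at 98.6% of all genes, whose median was 3.37 points. The share is built from the same counts as the sums above, so at Suz12 it restates the lower gene body sum. Crebbp went from 39.2% ± 5.26 to 51.8% ± 1.33 (SD, n = 2 each), Eed from 73.5% ± 9.36 to 83.7% ± 1.73, Kdm6a from 66.5% ± 0.996 to 76.4% ± 2.66 and Hdac3 from 28.4% ± 2.99 to 38.0% ± 2.82, at the 77th to 85.6th percentile. The differences at Ezh2 (6.81 points), Ep300 (5.38 points) and Kdm6b (4.53 points) lay nearer the median of all genes, at the 66.1st, 59.9th and 55.6th percentile. Hdac7 had 41.8% ± 1.99 and 41.3% ± 1.24. For each of the 8 genes the exact two-sided permutation p was 0.333, the smallest that 2 against 2 libraries allow, and the intervals cover counting error only.

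**Figure D4:**
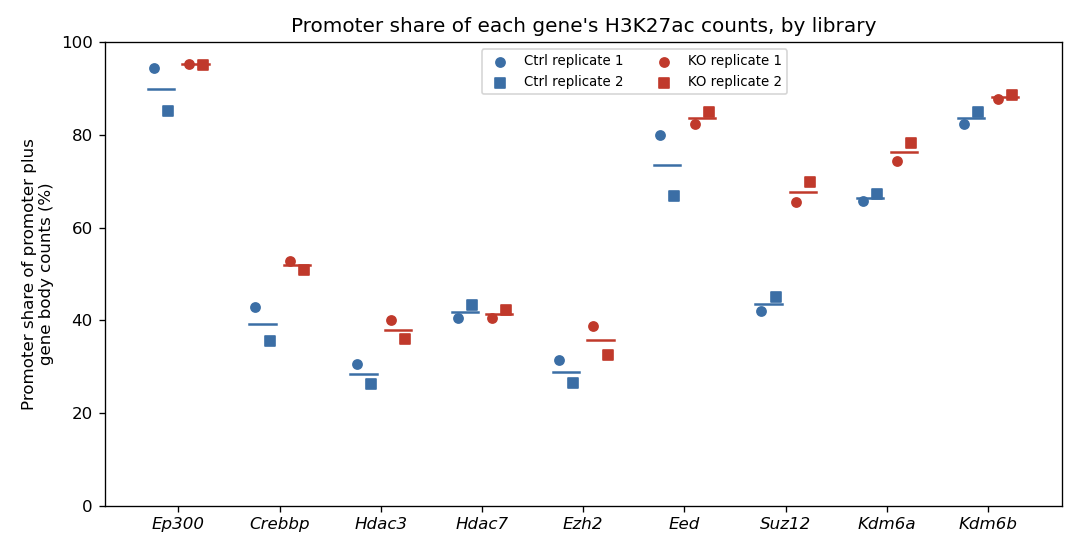
Promoter share (%) of the promoter plus gene body counts of each gene, 1 point per library (blue Ctrl, red KO; lines are means of 2 libraries). Both KO points lie above both Ctrl points at every gene except Hdac7, with the widest separation at Suz12.

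Among 71 other genes of H3K27 acetylation and methylation, 0 were called in either class. Promoter sums were higher in KO for 46 and lower for 21 of the 67 tested, and gene body sums were higher for 16 and lower for 39 of the 55 tested, or 70.9% lower beside 62% of all genes. These splits moved with scaling: with total counts as library size 36 promoters were higher and 31 lower and 10 gene bodies higher and 45 lower, and with the loess offset 36 and 31 and then 22 and 33. At an unadjusted p under 0.05, 1 promoter was higher, that of Phc3, a PRC1 subunit, with 86.4 and 75.9 CPM in Ctrl and 114 and 130 CPM in KO (log2 fold change 0.59 ± 0.24, unadjusted p = 0.0337), beside 0.826% of all promoters. At that threshold 4 of the 55 gene bodies were lower and 0 higher, a share near the 8.01% lower and 0.762% higher of all genes. They were Rbbp4, a histone-binding subunit of PRC2 (log2 fold change -2.10 ± 0.58, from 23.8 ± 2.95 to 5.47 ± 1.41 CPM), Paxip1 of the MLL3 and MLL4 complexes (-1.08 ± 0.32), the acetyltransferase gene Kat6a (-1.10 ± 0.41) and the reader gene Brd9 (-0.94 ± 0.39), which were named after their values were seen.

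By role, the promoters of the other PRC2 subunits were higher for 6 and lower for 2 of 8, with Phf19 at 9.05 and 14.9 CPM in Ctrl and 17.1 and 20.4 CPM in KO, and Mtf2 at 26.2 and 25.0 CPM in Ctrl and 16.8 and 18.2 CPM in KO. Both genes encode accessory subunits that recruit PRC2. They were named as the higher and the lower promoter of smallest p in the list, so their opposite directions follow from that choice (unadjusted p = 0.155 and 0.126). Their groups did not overlap, beside 17.9% of all promoters with KO above and 8.93% with KO below. PRC1 promoters were higher for 11 and lower for 4 of 15, with Cbx8 the lower gene of smallest p (-0.33 ± 0.33). NCoR/SMRT complex promoters were higher for all 6 by at most 0.26 (Tbl1x), though for 5, 4 and 3 of 6 with DESeq2 size factors, total counts and the loess offset, and their 5 tested gene bodies were lower under each of these scalings, with a median of -0.36. The MLL3/MLL4 list had 5 higher promoters (Pagr1a 0.28 ± 0.25) and 4 lower (Kmt2c -0.21 ± 0.31), and 6 of its 7 gene bodies were lower. Acetyl-lysine readers had 4 higher (2 with total counts; Brd2 0.43 ± 0.24) and 2 lower promoters (Mllt1 -0.17 ± 0.43), and all 5 gene bodies lower (4 of 5 with the loess offset). Other lysine acetyltransferases split 5 and 5 at promoters, or 3 higher and 7 lower with total counts or the loess offset (Hat1 0.41 ± 0.31, Kat6b -0.24 ± 0.26), with 8 of 10 gene bodies lower. PRC1 gene bodies were higher for 4 and lower for 5 of 9 (6 higher with the loess offset). Of the other HDACs and sirtuins, 7 of 12 gene bodies were higher (6 with total counts and 9 with the loess offset), with 9 of 13 promoters higher, or 6 under either of those scalings (Sirt3 0.20 ± 0.34) and 4 lower (Hdac8 -0.81 ± 0.62).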

How the data were processed

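H3K27ac was profiled by CUT&Tag, in which a tethered transposase cuts DNA beside the antibody-bound mark. The authors aligned reads with Bowtie2 to mm10, kept unique, non-duplicate reads, called peaks with MACS2 against IgG, merged them across libraries with bedtools and deposited raw counts per merged peak. Versions are not given in the sources used here. The IgG library was not analysed here. Peak coordinates were read as BED and are printed 1-based in mm10, and genes follow GENCODE M21.

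The 74550 peaks reaching 10 counts in 2 or more of the 4 libraries, and sums of promoter or gene body peaks for every protein-coding gene, were tested with edgeR 4.0.16 (R 4.3.3; glmQLFit, glmQLFTest, TMM factors and library sizes of the tested peaks, Benjamini-Hochberg). Values per group are mean ± SD, and log2 fold changes are KO over Ctrl ± SE. This SE was derived from the test, as the absolute log2 fold change divided by the square root of the quasi-likelihood F statistic. In the peak fit the prior degrees of freedom were infinite, so a peak's own replicate spread did not enter its p. The prior degrees of freedom were 73.17 for gene body sums and 8.89 for promoter sums. The p of a gene body sum therefore rested mostly on the spread estimated over all genes. Each library pooled littermates, so this spread is between pools and not between mice. Scripts were tested on simulated counts. Alternatives included DESeq2 1.42.0, other scalings and filters, a 1 kb promoter limit and leaving out each library.

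Named peaks were the most abundant promoter and gene body peak per gene, and, in each direction, the 3 of smallest p among peaks whose groups did not overlap. Pathway genes named were the 1 higher and 1 lower per list by promoter p. Genes and lists were chosen with earlier results of these data known.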

Additional observations from a re-analysis of the deposited data

How the results depend on the processing

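Counts of called features stayed at 0 for the promoter sums of the 9 genes under every alternative tried, and for their peaks and gene body sums under all but the replicate block. With the replicate number as a block, 2 of their peaks (the 7.77 kb Hdac7 and the 5.32 kb Kdm6b peak) and 1 gene body sum (Suz12) were called, among 211 peaks, 996 gene body sums and 0 promoter sums over the whole table. Same-numbered libraries deviated together with r = 0.24, but nothing in the labels says what the numbers share, and 2 pairs cannot settle it. The median gene body log2 fold change of -0.64 became -0.35 with a loess offset on abundance and -0.39 with promoters within 1 kb, and ranged from -0.74 to -0.42 when each library was left out. That of promoter sums ranged from -0.079 (without KO replicate 2) to 0.24, and that of peaks from -0.26 to 0.10. The 8 of 9 genes with a higher promoter share in KO became 6 of 9 with promoters within 1 kb and 7 of 8 without peaks near another start site, alternatives chosen after seeing the data. Leaving out a library cannot lower this count.

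Small differences turned sign. Without a count filter, the Ep300 promoter became 0.018, the Kdm6a promoter 0.043, its peak 0.042 and the Crebbp promoter peak 0.04, and 0.043 under the block. With at least 50 counts, the Crebbp promoter became -0.025, the Ezh2 promoter -0.009 and the Kdm6b gene body -0.053. With promoters within 1 kb, the Crebbp promoter became -0.024 and the Ep300 gene body 0.088. The loess offset gave -0.06 at the Hdac7 promoter and -0.041 at the Eed promoter peak. The Kdm6b gene body became -0.013 with total counts as library size and -0.055 without shared peaks. Leaving out each library gave ranges across 0 at the promoters of Ep300 (-0.26 to 0.14), Crebbp (-0.13 to 0.24), Hdac3 (-0.065 to 0.52), Hdac7 (-0.12 to 0.54), Suz12 (-0.76 to 0.19) and Kdm6a (-0.58 to 0.34), at the gene bodies of Hdac7 (-0.005 to 0.48) and Kdm6b (-0.14 to 0.32), and at the most abundant promoter peaks of Ep300 (-0.56 to 0.067), Crebbp (-0.41 to 0.49), Hdac3 (-0.12 to 0.50), Ezh2 (-0.059 to 0.50), Suz12 (-0.62 to 0.22) and Kdm6a (-0.58 to 0.34) and the gene body peak of Kdm6b (-0.30 to 0.19). The cause of these shifts was not tested. Gene body peaks of these genes held a median of 42.5 counts over the 4 libraries, which limits single peaks more than sums.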
